A study of Mus musculus with 30 samples.

Results

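The comparison set 2 rescue clones of mouse embryonic stem cells (ESCs) side by side after 5 days without doxycycline (Dox): Chek1_R, which carries an shRNA against Chek1, and the control clone Control_R. Its members were the 6 arrays labelled Chek1_R −Dox or Control_R −Dox, 3 per clone, of 30 arrays in the series. Both clones were made from Ainv15, an ESC line that expresses the reverse tetracycline transactivator (rtTA), for which the labels of Control_R give a 129P2/OlaHsd background. In Chek1_R the shRNA acts all the time on the cell's own Chek1 mRNA, and Dox (1 µg/ml) switches on a rescue copy of the gene that the shRNA does not recognize, so that Dox withdrawal was designed to leave the cells with little Chek1. According to the study, stocks were kept with Dox and leukemia inhibitory factor (LIF) on mouse embryonic fibroblast feeders. The cultures with and without Dox were grown free of feeders. The study's 5-day differentiation assay, with Dox or without it, kept LIF in the medium. The labels do not say whether the 3 arrays of a condition came from 1 clone or several, or from separate cultures. P-values therefore measure the spread between these arrays, which may be technical, and a difference holds everything in which the cells labelled Chek1_R and Control_R differ.

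Chek1 encodes the kinase CHK1, which is activated by ATR when replication forks stall and which holds back CDC25 phosphatases and origin firing until DNA has been copied. ESCs cycle quickly, with a short G1 phase, and rely on this checkpoint. Oct4 (Pou5f1), Sox2 and Nanog keep ESCs undifferentiated, and exit towards the primitive streak, the source of mesoderm and endoderm in the embryo, is marked by Brachyury (T) and driven by Wnt, Nodal, FGF and BMP signals.

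The shRNA of the Chek1_R construct, shown because it defines the clone, is given in the supplement of the study as
Chek1_R: cccatgtagtagtatcacttt
It has 21 bases. The study lists Chek1 with the genes whose rescue vector leaves out the stretch that the shRNA targets, and whether the array probes for Chek1 lie within the rescue copy is not given in the sources used here.

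Chek1 mRNA was lower in Chek1_R than in Control_R without Dox. The brighter of 2 tested Chek1 probes gave 6.08, 6.24 and 5.72 on the Chek1_R arrays and 7.12, 7.08 and 7.05 on the Control_R arrays, as normalized signal on a log2 scale. These groups did not overlap, and all 6 arrays detected the probe. The difference was −1.07 log2 (SE 0.16, adjusted p 3.1e-06, limma with Benjamini-Hochberg adjustment), or 2.1-fold. The dimmer probe gave −1.36 log2 and was detected on 1 of 3 Chek1_R arrays and on 3 of 3 Control_R arrays. With Dox the brighter probe gave 5.32, 5.2 and 5.4 in Chek1_R, where no array detected it, and 7.34, 7.13 and 7.06 in Control_R, at least 3.02-fold lower (adjusted p 1.3e-09). The fitted gap to Control_R was smaller without Dox than with it by 0.8 log2 (SE 0.22, adjusted p 0.013), a size that rests on arrays with Dox that did not detect the probe. For the dimmer probe, likewise undetected with Dox, the interaction of 0.51 log2 was not called (adjusted p 0.11). As the position of the probes is not known, they do not settle the Dox labels, and Chek1_R below means the arrays that carry this label. Another Chek1 probe was detected nowhere.

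**Figure D1:**
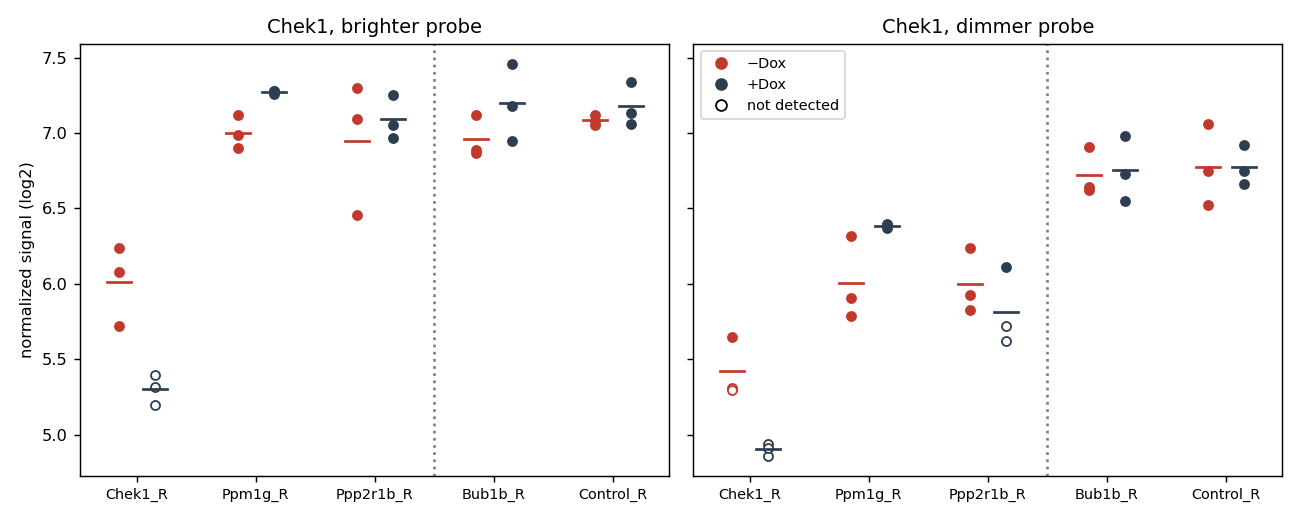
Normalized signal (log2) of 2 Chek1 probes on all 30 arrays, by clone (x axis) and Dox state (colour); points are arrays, open points were not detected, bars are means of 3 arrays, and the dotted line parts the array sets. The brighter probe was undetected on the 3 Chek1_R arrays with Dox, lay between 5.72 and 6.24 on those without Dox, and lay above them all in Control_R.

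The 2 clones lie in different array sets by signal level. The lowest signal with a detection p under 0.05 was 29.8 to 48.5 on the Chek1_R arrays without Dox and 12.9 to 17.5 on those of Control_R, so that array set and clone cannot be told apart in any value of this comparison. Ppm1g_R and Ppp2r1b_R, clones with an shRNA against a phosphatase gene and a phosphatase subunit gene, share the array set of Chek1_R, and Bub1b_R shares that of Control_R. Replicate arrays correlated with r between 0.994 and 0.996 across 15151 tested probes, and Chek1_R with Control_R arrays with r between 0.948 and 0.959.

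Called probes had an adjusted p below 0.05 and a difference of 1.5-fold or more. Of 15151 tested probes, 4356 (28.8%) were called without Dox, 2138 higher (14.1%) and 2218 lower (14.6%) in Chek1_R, and these stood for 3753 genes. At least 2-fold differences were found for 767 probes higher and 733 lower, and at least 4-fold differences for 109 higher and 50 lower, so differences past 4-fold lay more often on the higher side. Of the called probes, 1580 higher and 1571 lower were detected on all 6 arrays. Another 180 of the higher ones were detected on all Chek1_R arrays and no Control_R array, and 410 of the lower ones the other way round. The Control_R arrays detected more probes (13325 to 13685, against 12763 to 12864 in Chek1_R), and the part of this in the calls was not tested. With 1 probe per gene, 14.3% of 11177 genes were called higher and 14.7% lower, and counts of the gene lists that follow are to be read against these shares. With 3 arrays per group, their number sets the precision. With no fold limit, 9179 of the 15151 probes had an adjusted p below 0.05, so separated groups are not particular to the genes named. The share of all probes whose groups did not overlap was not counted.

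Nearly all tested genes of the primitive streak and early mesoderm were higher in Chek1_R. Of 16 tested, 13 were higher and 0 lower, with a median difference of 2.15 log2 against 0 for all genes. The median was 1.99 with 3 genes set at their bound and 4.07 without background correction. T, the T-box factor that defines the streak, gave 10.94, 10.79 and 10.84 in Chek1_R and 6.46, 6.4 and 6.35 in Control_R, a difference of 4.45 log2 (SE 0.11, adjusted p 4.3e-20). Sp5, a Wnt-induced zinc finger factor, gave 12.3, 12.42 and 12.38 against 8.09, 7.75 and 8.08 (4.39 log2, SE 0.1, adjusted p 6.8e-21). The growth factor gene Fgf8, which streak cells need to migrate, gave 11.45, 11.26 and 11.38 against 7.15, 7.16 and 7.07 (4.24 log2, SE 0.07, adjusted p 2.1e-23). In none of the 3 genes did the clones come close to overlapping, and each was at least 18-fold higher. Cdx2, a caudal homeobox factor of the posterior streak and of trophectoderm, gave 9.94, 9.86 and 9.92 against 5.76, 6.03 and 5.54 (4.13 log2, adjusted p 4.4e-17). Evx1, a homeobox factor of the posterior streak, gave 9.48, 9.5 and 9.5 against 5.58, 5.71 and 5.32 (3.96 log2, adjusted p 5.9e-17), with 2 of 3 Control_R arrays detecting it. The clones did not overlap in these genes either. Mixl1, Lhx1 and Eomes, transcription factors of the streak and its first mesoderm and endoderm, were detected on 3 of 3 Chek1_R arrays and 0 of 3 Control_R arrays, which puts them at least 4.14-fold, 3.81-fold and 2.35-fold higher. Mesp1 (2.07 log2), the factor of nascent cardiac mesoderm, Gsc (1.28 log2), a homeobox gene of the anterior streak, and the ligand gene Wnt3 (2.22 log2) were higher as well, with 1 of 3 Control_R arrays detecting Mesp1 and Wnt3. The listed genes not called were Tbx6 (0.4 log2), Wnt3a (0.01) and Nkx1-2, which none of the 6 arrays detected, and Mesp2, Cdx4 and Foxa2 were too rarely detected to be tested.

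Genes around the Wnt and BMP pathways and the Hox clusters differed along with the streak genes. Of 15 tested Wnt targets, 6 were higher and 3 lower, with a median of 0.03 log2 that turned to −0.06 without background correction. Axin2, the feedback inhibitor most often used to read Wnt activity, gave 9.47, 9.41 and 9.41 in Chek1_R and 7.27, 7.28 and 7.27 in Control_R (2.16 log2, adjusted p 1.4e-17), and Notum, a secreted Wnt deacylase, was 1.26 log2 higher. Lower were Ascl2 (at least 2.02-fold), Sfrp1 (−0.83 log2) and Porcn (−0.77 log2), the acyltransferase that Wnt secretion needs. Rspo3, a secreted enhancer of Wnt signaling, gave 9.08, 8.97 and 9.13 against 5, 5.51 and 4.87, a difference of 3.94 log2 with 1 of 3 Control_R arrays detecting it. Among 13 BMP targets and pathway genes, 8 were higher and 2 lower (median 0.74 log2). Msx1 was 2.74 log2 higher, the antagonist Nog 1.95 and the ligand Bmp4 1.59, while Bmp7 (−1.38 log2) and the inhibitory Smad6 (−0.84 log2) were lower. Of 20 tested Hox genes, a list written after their values had been seen, 12 were higher and 0 lower (median 0.67 log2). The median was 0.34 with 9 genes set at their bound and 2.26 without background correction. Hoxc6 (2.78 log2), Hoxc9 (2.57 log2) and Hoxd8 (2.51 log2) led the genes detected in both clones, and Hoxa13 (−0.19) and Hoxc13 (−0.2) were not called. Later mesoderm genes were mixed, with Cxcl12 (1.54 log2), Pdgfra (1.39), Snai1 (1.24) and Isl1 (1.21) higher, Gata2 (−0.74) lower and 4 of 9 not called.

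**Figure D2:**
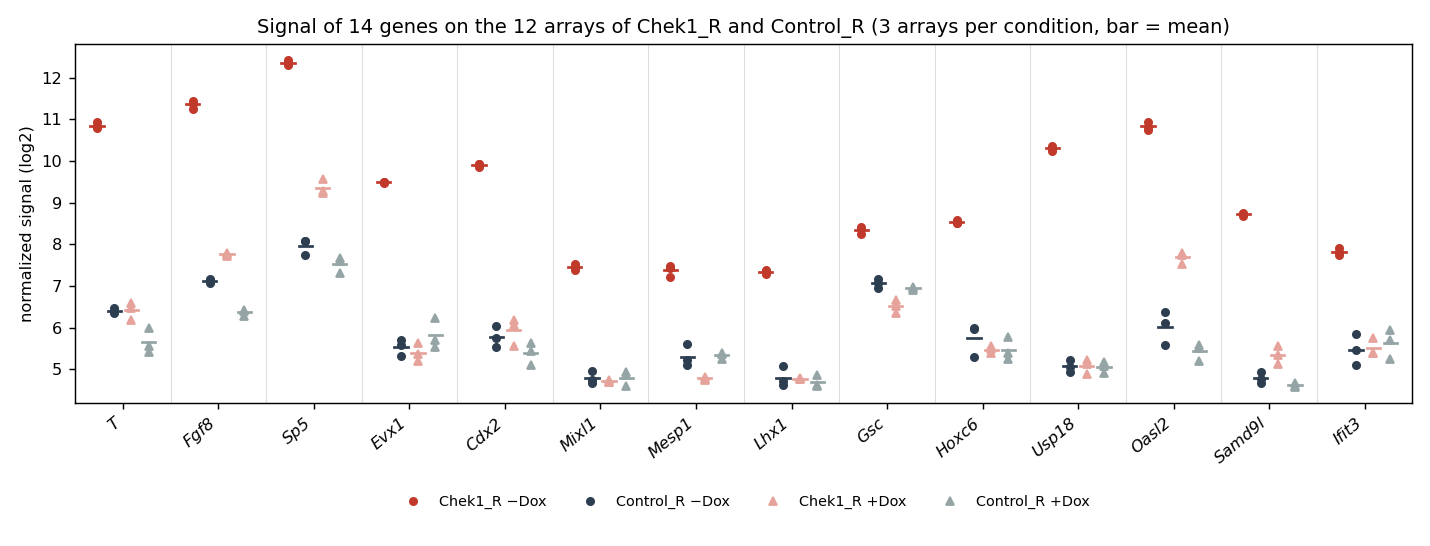
Normalized signal (log2, y axis) of 14 genes (x axis) on the 12 arrays of Chek1_R and Control_R; points are arrays, bars the means of 3 arrays, circles −Dox and triangles +Dox. In each of these genes the 3 Chek1_R arrays without Dox lie above all 9 others, T for example at 10.79 to 10.94 against 6.35 to 6.46 in Control_R without Dox.

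Some markers of the fibroblast feeders were also higher in Chek1_R. Of 17 tested feeder genes, 9 were higher and 1 lower (median 0.69 log2), and their summed linear signal was 21829 to 23054 on the Chek1_R arrays and 16607 to 16959 on the Control_R arrays. Col1a1 (1.46 log2), Col5a1 (1.35), Vim (1.34) and Dcn (at least 2.16-fold) were higher, Thy1 was lower (−1.29 log2), and Col1a2, Lum, Postn and S100a4 were too rarely detected to be tested. Most of these genes are also made by mesoderm. With Dox the summed signal was likewise higher in Chek1_R (20717 to 21520, against 15464 to 16053), where 3 streak genes were called. The part of feeder RNA in the mesoderm values was not tested. Of 19 genes of epithelial to mesenchymal transition and adhesion, 10 were higher and 1 lower (median 0.66 log2), among them the epithelial genes Dsp (1.66 log2) and Tjp1 (1.51) as well as Vim, while the tight junction gene Cldn4 (−0.75 log2) was lower.

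Interferon-response genes held further large differences. The list was written after its leading genes had been seen, so its counts are a description. Of 38 tested, 26 were higher in Chek1_R and 1 lower, with a median of 1.48 log2. Usp18, the ISG15 protease that dampens interferon signaling, gave 10.23, 10.37 and 10.32 in Chek1_R and 5.06, 4.93 and 5.22 in Control_R, where no array detected it, at least 29.9-fold higher (adjusted p 3.7e-20). Oasl2, of the oligoadenylate synthetase family, gave 10.82, 10.93 and 10.75 against 6.1, 5.57 and 6.37 (4.82 log2, SE 0.15, adjusted p 2.8e-18). Samd9l, an antiviral restriction factor, gave 8.76, 8.73 and 8.69 against 4.67, 4.76 and 4.93, at least 9.99-fold higher. The Chek1_R arrays stood far above those of Control_R in all 3 genes and varied among themselves by under 0.2 log2. In Ppm1g_R, Ppp2r1b_R and Bub1b_R without Dox the means were 8.68, 8.87 and 8.18 for Usp18 and 9.69, 10.21 and 9.05 for Oasl2. Samd9l averaged 7.9, 7.41 and 8.02, so all 3 genes were above Control_R in these clones as well. Also higher in Chek1_R than in Control_R were the guanylate-binding protein genes Gbp3 (3.38 log2) and Gbp1 (2.85, Gbp2b in RefSeq). The immunity-related GTPase gene Iigp2 (2.81, Irgm2 in RefSeq), Ifi27 (3.14) and Ifit3 (2.35) were higher in Chek1_R too. Dhx58, a cytoplasmic RNA sensor, was the listed gene that was lower (−0.97 log2), and Stat2 (−0.09), Tap1 (0.16) and H2-K1 (0.28) were not called. Of 7 tested blood and immune cell markers, 1 was higher (Aif1, 0.59 log2) and 3 lower. The Aif1 call was lost without Chek1_R replicate 1 (0.48) or 2 (0.56) or Control_R replicate 2 (0.48). The lower markers were Cd68 (−1.62 log2), Laptm5 (−1.23) and Hba-a1, undetected in Chek1_R and at least 1.02-fold lower. The summed signal of the 7 markers was 2635 to 2736 in Chek1_R and 5924 to 6404 in Control_R. Most of it came from Laptm5, with a mean of 11.06 log2 in Chek1_R and 12.29 in Control_R.

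Other genes with large differences fell outside these lists. Klhl6, a BTB-Kelch adaptor gene, gave 9.2, 9.18 and 9.29 and was undetected in Control_R, at least 14.1-fold higher. Defcr-rs7 and Defcr-rs10, members of the cryptdin defensin family, were 5 log2 and at least 6.54-fold higher, but family members are close in sequence and the probes may not tell them apart. Tmem176b (3.44 log2) and Vstm2b (3.05), which encode membrane proteins, and S100a10 (2.88), the annexin A2 partner, completed the 12 largest differences of named genes among probes detected on all 6 arrays. Genes with only a clone or LOC identifier were left out of this ranking. LOC100044289, of unknown identity here, had the largest difference of all tested probes (5.805 log2), and AY761185 was detected on 3 of 3 Chek1_R arrays and no Control_R array.

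Pluripotency genes split rather than fell together. Of 12 tested core genes, 2 were higher and 3 lower (median −0.27 log2), and of 13 naive genes 2 were higher and 2 lower (median −0.31 log2), counts close to the shares over all genes. Pou5f1 gave 11.93, 11.82 and 11.87 in Chek1_R and 12.62, 12.55 and 12.51 in Control_R, a difference of −0.69 log2 (SE 0.09, adjusted p 3.4e-07). Klf4, a LIF target, gave 9.74, 10 and 9.64 against 9.02, 8.84 and 8.96 and was higher (0.85 log2, adjusted p 9.5e-07). Nanog gave 12.98, 13.13 and 12.89 against 12.53, 12.45 and 12.55, a difference of 0.49 log2 (adjusted p 2.1e-04) that stayed under 1.5-fold. The signs of these 3 genes differed. Their groups did not overlap, which by itself does not set them apart from other probes. Sox2 (−0.56 log2) and Esrrb (−0.49) were also under 1.5-fold, and Zfp42 (0.17, adjusted p 0.25) did not pass either limit. The remaining core genes called were Dnmt3l (−0.95 log2), the cofactor of de novo DNA methylation, Utf1 (−0.66), the RNA-binding protein gene Lin28 (1.32, Lin28a in RefSeq) and L1td1 (1.38). All 12 core genes were detected on every array of both clones, with a summed signal of 76191 to 81053 in Chek1_R and 83673 to 89240 in Control_R, so both clones carried the core ESC markers. Since the RNA is bulk, fewer cells with a transcript and less of it per cell cannot be told apart.

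Fgf4 and Fgf5 moved in opposite directions. Fgf4, the ESC growth factor that primes cells for lineage entry, gave 7.03, 6.89 and 7.15 in Chek1_R and 9.25, 9.27 and 9.28 in Control_R (−2.25 log2, SE 0.09, adjusted p 1.3e-15). Fgf5, a marker of the epiblast after implantation, gave 8.29, 8.04 and 8.27 against 4.98, 4.73 and 4.65, undetected in Control_R and at least 6.95-fold higher (adjusted p 3e-16). Neither gene's groups overlapped. Of 10 formative and primed epiblast genes, 6 were higher and 0 lower (median 0.69 log2), including Sall2 (1.38 log2), the ESC methyltransferase gene Dnmt3b (0.76) and the POU factor gene Pou3f1 (0.77). Otx2 (−0.14 log2, adjusted p 0.087) was not called. Of 14 genes listed for FGF and ERK signaling and its feedback, 5 were higher and 5 lower, with Fgf4 again among the lower ones. The phosphatase genes Dusp4 (2.22 log2) and Dusp6 (1.35) were higher, and Etv4 (−1.43) and the receptor gene Fgfr2 (−0.81) were lower. Among 28 genes for which the study designed qRT-PCR primers, 22 were tested, 8 were higher and 3 lower, and Pou5f1, Gata6 (−0.61 log2) and Ascl2 were the lower ones. The Gata6 call was lost without Chek1_R replicate 1 (−0.56) or 3 (−0.53). Of the endoderm list 2 of 12 were higher and 3 lower, of trophectoderm 4 of 9 higher and 1 lower, and of neural ectoderm 1 of 4 higher and 0 lower. The trophectoderm keratins Krt8 (2.17 log2) and Krt18 (1.74) were among the higher genes.

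Genes of the actin cytoskeleton and targets of the YAP coactivator were higher as a group, in a list that was again written after values had been seen. Of 22 tested, 18 were higher and 0 lower (median 1.23 log2). Tpm1, a tropomyosin gene, gave 13.21, 13.08 and 13.23 in Chek1_R and 11.39, 11.36 and 11.43 in Control_R (1.78 log2, SE 0.06, adjusted p 4.6e-17). The YAP target Cyr61 was 1.51 log2 higher and Anxa1 1.74. With Dox 19 of the 22 were higher, against 9.88% of all genes, Tpm1 by 1.72 and Cyr61 by 1.95. This group thus differed between Chek1_R and Control_R in both Dox states. Against Ppm1g_R and Ppp2r1b_R without Dox, 0 of the 22 were higher in Chek1_R and 1 lower (median −0.11 log2). Over all genes 1.7% were higher and 2.79% lower there, so these counts do not set the list apart. The mean of Tpm1 without Dox was 13.17 in Chek1_R, 13.24 in Ppm1g_R, 13.34 in Ppp2r1b_R and 13.1 in Bub1b_R.

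The largest decreases included stress-response and membrane genes. Ddit3 (CHOP), a transcription factor that ATF4 induces, gave 7.79, 7.5 and 7.64 in Chek1_R and 10.58, 10.85 and 10.67 in Control_R (−3.06 log2, SE 0.13, adjusted p 1.6e-15). Aqp3, a water and glycerol channel, gave 7.54, 7.51 and 7.48 against 10.47, 10.31 and 10.49 (−2.91 log2, SE 0.06, adjusted p 2.5e-21). Aire, the autoimmune regulator, gave 7.34, 7.43 and 7.62 against 10.16, 10.27 and 10.27 (−2.77 log2, adjusted p 1.4e-18). All 3 genes were still detected on every array of Chek1_R. Of 22 ATF4 stress-response genes, 7 were lower and 0 higher (median −0.35 log2), with Nupr1 (−1.9 log2) and Trib3 (−1.66) next to Ddit3, and Atf4 itself (−0.16) not called. LOC100045403, again without a gene name, gave −3.03 log2. The other 9 of the 12 largest decreases of named genes among probes detected on all 6 arrays were Myl3 (−2.51 log2), Cd97 (−2.46, Adgre5 in RefSeq), Zap70 (−2.37), Igsf21 (−2.35), Soat2 (−2.33), Tnfrsf13c (−2.28), Itgb7 (−2.27), Fgf4 and Cd6 (−2.24), several of them known from lymphocytes. Rab3il1, a guanine exchange factor gene, was undetected in Chek1_R and gave 7.97, 8.08 and 8.02 in Control_R, at least 5.51-fold lower, and Defb42 (at least 4.16-fold), Myo1f (4.09), Car12 (3.35) and Akr1b7 (3.34) followed by the same measure.

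Germline, lysosome and glycolysis genes were lower in part. Of 18 germline and meiosis genes, 10 were lower and 1 higher (median −0.85 log2). Smc1b, the meiotic cohesin subunit, gave 6.88, 6.98 and 7.01 in Chek1_R and 8.58, 8.48 and 8.55 in Control_R (−1.58 log2, adjusted p 7.6e-15), Mov10l1, a helicase of the piRNA pathway, gave a difference of −1.59 log2, and Taf7l was at least 3-fold lower. Of 26 lysosome genes, 13 were lower and 1 higher (median −0.58 log2), led by Ifi30 (−1.81 log2), a lysosomal thiol reductase, Laptm5 (−1.23) and the sialidase gene Neu1 (−1.22). Of 25 glycolysis and hypoxia genes, 10 were lower and 1 higher (median −0.27 log2), with Pfkp (−1.18 log2), a phosphofructokinase, and Ndrg1 (−1.01) lower, the pyruvate dehydrogenase kinase gene Pdk1 higher (0.78), and Gapdh (−0.11) and Ldha (−0.04) not called. Imprinted genes differed in both directions, 9 higher and 5 lower of 20, from Peg10 (1.7 log2) and Mest (1.68) to Slc22a18 (−1.49) and Nnat (at least 2.11-fold lower).

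Among genes of the DNA damage checkpoint, in which CHK1 works, the share called lower was close to that over all genes (14.7%, with 14.3% higher). Of 19 DNA damage checkpoint genes, 3 were lower and 0 higher (median −0.25 log2), namely Chek1, 6620401K05Rik (Atrip in RefSeq, −0.62 log2), the partner of ATR, and Cdc25b (−0.77), a phosphatase that CHK1 opposes. Atrip gave 8.22, 7.69 and 8.03 against 8.52, 8.78 and 8.49, and its call was lost without replicate 2 of either clone (−0.48 and −0.53 log2). Cdc25a (−0.55) and Chek2 (0.4) were not called. Of 37 DNA replication genes 3 were higher and 1 lower, of 22 mitosis genes 1 higher and 0 lower, of 20 genes of homologous recombination and the Fanconi pathway 1 higher and 5 lower, and of 32 cytosolic ribosomal protein genes 1 higher and 0 lower. For p53 targets 4 of 26 were lower, also close to the 14.7% over all genes, and 0 higher. Cdkn1a, the p21 gene, gave 11.34, 11.48 and 11.3 against 11.46, 11.39 and 11.38 (−0.03 log2, adjusted p 0.61), with overlapping groups, and Plk3 (−1.67), Pmaip1 (−1), Fas (−0.89) and Tnfrsf10b (−0.79) were the lower ones. The replication list had a median of −0.04 log2 that turned to 0.11 with arrays scaled to their median, and the mitosis list one of −0.06 that turned to 0.03.

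**Figure D3:**
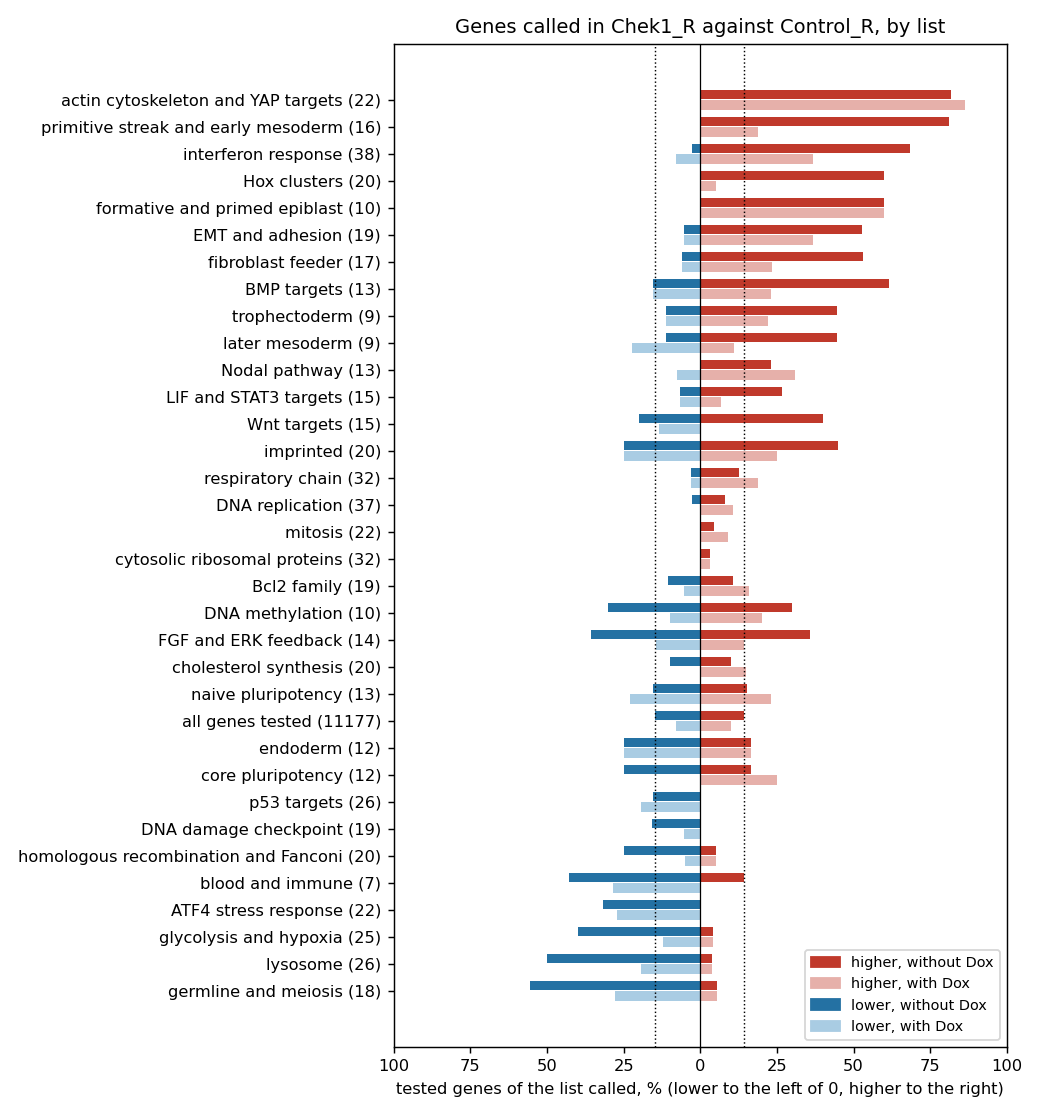
Share of the tested genes of each list called higher (right) or lower (left) in Chek1_R than in Control_R, in percent of the number in brackets, without Dox (dark) and with Dox (light); dotted lines mark the shares over all 11177 genes without Dox (14.3% and 14.7%). The streak list reached 13 of 16 higher without Dox and 3 of 16 with Dox, whereas the actin and YAP list was high in both; the interferon, Hox and actin lists were written after values had been seen.

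With Dox, 2661 probes (17.6%) were called between the same clones on 6 other arrays, 1477 higher (9.75%) and 1184 lower (7.81%). Of the 2138 probes higher without Dox, 1058 were also higher with Dox, which is 49.5% of the former and 71.6% of the latter list. Of the 2218 lower probes, 925 were lower in both states, 41.7% and 78.1% of the lists, and 9 probes were called in opposite directions. The 2 comparisons share no array but share clones and array sets.

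The difference between the clones itself depended on Dox for 1362 probes (8.99%), tested as an interaction, with 662 more positive (4.37%) and 700 more negative (4.62%) without Dox. Among interactions of at least 2-fold 249 were positive and 92 negative, and of at least 4-fold 57 and 0. Of 16 streak genes, 13 were on the positive side and 0 on the negative. T gave 6.6, 6.47 and 6.17 in Chek1_R with Dox and 5.41, 5.56 and 6 in Control_R with Dox, so its difference of 0.76 log2 there was 3.69 smaller than without Dox (SE 0.15, adjusted p 8e-15), with 2 of 3 arrays of Control_R with Dox detecting it. Evx1 (4.39 log2) and Cdx2 (3.58) also had large interactions, and neither was called between the clones with Dox. With Dox, 1 of 3 Chek1_R arrays detected Evx1 and 1 of 3 Control_R arrays detected Cdx2, so these sizes rest partly on the background level. Usp18, Defcr-rs7, Klhl6 and Rspo3 passed the interaction test too, and since no Chek1_R array with Dox detected them, they are given without a size. Of 38 interferon-response genes, 21 had a larger difference without Dox and 14 were already higher with Dox. Oasl2, for instance, gave 7.8, 7.75 and 7.53 in Chek1_R with Dox against 5.19, 5.51 and 5.58 in Control_R. Of 20 Hox genes, 8 had a positive interaction and 1 was called higher with Dox. On the negative side, where LOC100045403 was furthest (−1.861), stood Enpp2 (−1.62 log2), the autotaxin gene, with 8.24, 8.41 and 8.46 in Chek1_R without Dox and 9.61, 9.59 and 9.67 with Dox. Smc1b (−1.62), the lipase gene Liph (−1.58), Calml4 (−1.55) and the homeobox gene Rhox9 (−1.51) came next. Smc1b differed by 0.04 log2 between the clones with Dox, and Otx2, not called without Dox, was 1.08 log2 higher there (interaction −1.22). Among the ATF4 stress-response genes 6 of 22 were already lower with Dox, Ddit3 with a difference of −1.88 log2.

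**Figure D4:**
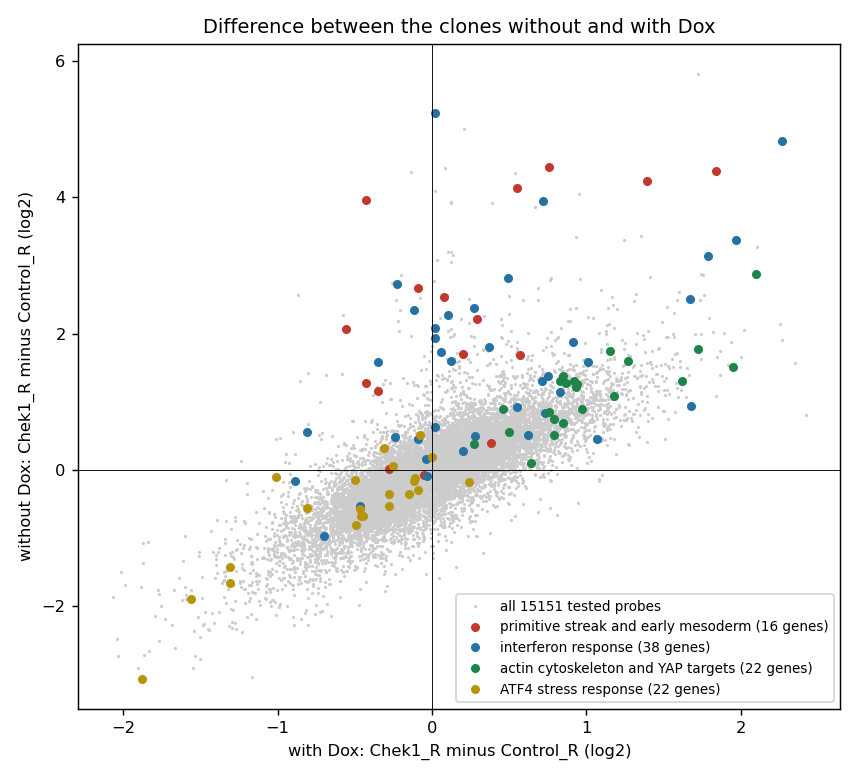
Difference between Chek1_R and Control_R (log2) with Dox on the x axis and without Dox on the y axis for 15151 tested probes (grey), with the brightest tested probe of each gene of 4 lists in colour, undetected probes at their fitted value. Streak and interferon-response genes such as T (0.76 and 4.45) and Oasl2 (2.27 and 4.82) lie far above the diagonal, whereas actin and YAP genes such as Tpm1 (1.72 and 1.78) lie near it and Ddit3 (−1.88 and −3.06) lies low in both states.

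**Figure D5:**
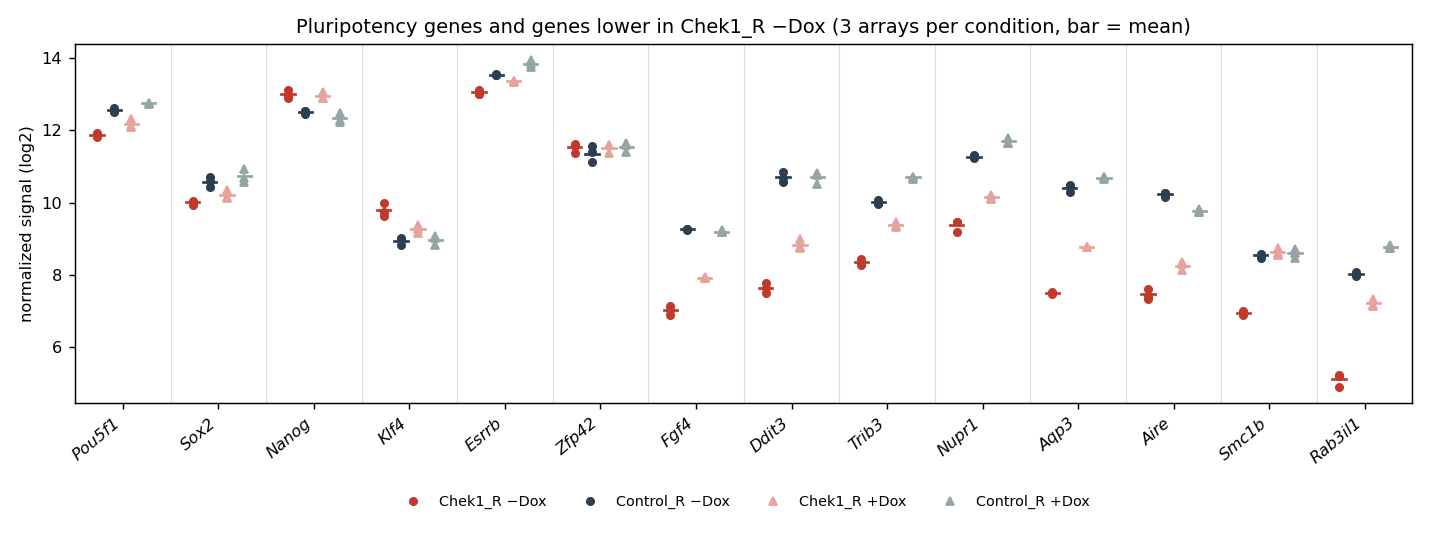
Normalized signal (log2, y axis) of pluripotency genes and of genes lower in Chek1_R (x axis) on the 12 arrays of both clones; points are arrays, bars the means of 3 arrays, circles −Dox and triangles +Dox. Pou5f1 and Nanog differ by under 1 log2 and in opposite directions, Fgf4, Ddit3 and Aqp3 are lower in Chek1_R in both Dox states, and Smc1b is lower only without Dox (−1.58, against 0.04 with Dox).

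Within the array set of Chek1_R, its arrays without Dox were compared with the mean of Ppm1g_R and Ppp2r1b_R without Dox, 3 arrays each. This called 667 probes (4.4%), 271 higher (1.79%) and 396 lower (2.61%), and with arrays scaled to their median 863 higher and 221 lower, so the split depends on the scaling. The interferon-response genes Usp18 (1.54 and 1.76 log2 on its 2 probes) and Ifit3 (1.3) were higher in Chek1_R than in these clones, as was Klhl6 (1.95), all detected on every array. Mesp1, Lhx1 and the steroid dehydrogenase gene Akr1c18 were called higher too, without a size, since no array detected Mesp1 and Lhx1 in Ppp2r1b_R or Akr1c18 in Ppm1g_R. T was 0.75 log2 higher, and its mean level without Dox was 10.41 in Ppm1g_R, 9.81 in Ppp2r1b_R and 11.72 in Bub1b_R, which has the array set of Control_R. Klhl6 (9.58), Mesp1 (7.98) and Lhx1 (7.92) likewise had higher means in Bub1b_R without Dox than in Chek1_R (9.22, 7.38 and 7.33). Against the mean of Ppm1g_R and Ppp2r1b_R, Cdx2 was not called (0.06 log2, adjusted p 0.75). Its mean level of 9.91 in Chek1_R lay below that in Ppm1g_R (10.5) and above that in Ppp2r1b_R (9.18). Aqp3 (−1.58 log2), Rhox9 (−1.55) and Aire (−1.35), detected on every array, were lower in Chek1_R than the mean of Ppm1g_R and Ppp2r1b_R. So were Dpp4, detected on 1 of 3 Chek1_R arrays, and Rhox6, detected on none. Rhox9 averaged 7.26 in Chek1_R, 9.91 in Ppm1g_R and 7.7 in Ppp2r1b_R. Rhox6 averaged 5.25, 7.84 and 5.72 in the same order, so both lay much closer to Ppp2r1b_R. Chek1 gave −0.96 log2 (adjusted p 8.8e-06).

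Some values bear on the quality of the RNA and the identity of the lines. Of 5 Actb probes, 3 were lower in Chek1_R without Dox (−2.11, −1.85 and −1.11 log2) and 2 were not called (0.38 and 0.23 log2), and the lowest 2 spread over SDs of 0.37 and 0.44 within Chek1_R. Of 2807 genes with several tested probes, 1277 had a called probe and 24 had probes called in opposite directions, among them Egfr and Ifitm1. The Y-linked gene Eif2s3y was higher in Chek1_R without Dox (1.11 log2, adjusted p 3.8e-07) and with Dox (1.25). Its mean level without Dox was 9.24 in Ppm1g_R, 10.85 in Ppp2r1b_R and 6.56 in Bub1b_R. Of 3 tested Y-linked genes, 1 was higher and 2 were not called without Dox, and 2 were higher with Dox. The part of these in the other differences was not tested.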

How the data were processed

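Total RNA of 30 samples was labelled and hybridized to Illumina mouse BeadChips, and 6 of these arrays make up the comparison. The authors deposited non-normalized probe intensities, each paired with a detection p-value, and the submitters' processing notes name lumi without giving a version. From the deposited intensity of 25697 probes, values were background-corrected by the normexp method with detection p-values, quantile-normalized over 30 arrays with an offset of 16 and put on the log2 scale (neqc, limma 3.58.1, R 4.3.3). Detection p-values turned into dates by a spreadsheet were found (46 in replicate 2 of Ppm1g_R and 14 in replicate 2 of Bub1b_R, both without Dox), and the p was rebuilt from the time of day in the cell or, where it has none, taken from the probe nearest in signal on that array. The filter asked for detection (p below 0.05) by 3 or more arrays of the series (15151 probes, 11177 symbols).

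A linear model with 10 conditions was fitted with empirical Bayes moderation (20 residual and 3.38 prior degrees of freedom), and p-values were adjusted over all tested probes by Benjamini-Hochberg. The difference between clones without Dox, the same with Dox, their interaction, and Chek1_R against Ppm1g_R and Ppp2r1b_R were contrasts of this fit. Where a probe was undetected on all arrays of a group, the fold is a lower bound: the mean of the bright group over the mean, per array, of the higher of the lowest detected signal and the probe's own signal. In gene lists each gene stands by its brightest tested probe. Symbols were matched to RefSeq for current names (14527 of 15151 tested probes, 95.9%).

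Genes are named as the 12 largest differences in each direction among probes detected on all 6 arrays, the 5 largest bounds in each direction, the 5 largest interactions and same-set differences in each direction, and up to 3 genes of each list and direction, leaving out probes with only a clone, Riken or LOC identifier. Other list members and the LOC and clone identifiers given were chosen after their values were seen. The comparison and lists were chosen with earlier results of these data known, and the interferon, Hox and actin lists were added after values had been seen. The calculations were tested on simulated data. Alternatives were the background correction, scaling, offset, filter, fold limit, arrays fitted, replicate block and each array left out.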

Additional observations from a re-analysis of the deposited data

Results flagged for a closer look

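Whether the difference between Chek1_R and Control_R itself depended on Dox was tested as an interaction (limma, Benjamini-Hochberg over all tested probes), and 1362 probes passed at 1.5-fold or more. Of 144 genes named in the text, 81 were among them, against 8.99% of all tested probes. Many genes were named for a large interaction or a large difference between the clones, so this count reflects that choice. Values in brackets are the log2 difference without Dox minus that with Dox.

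Among genes detected on at least 1 array of each of the 4 groups, the difference was more positive without Dox by at least 2 on the log2 scale for Evx1 (4.39), T (3.69), Cdx2 (3.58), Msx1 (3), Vstm2b (2.93), Fgf8 (2.84), Oasl2 (2.56), Sp5 (2.56), Hoxc9 (2.47), Ifit3 (2.47), Iigp2 (2.32), Hoxd8 (2.28) and Tmem176b (2.09). With Dox, 1 of 3 arrays detected Evx1 and Msx1 in Chek1_R, Cdx2, Hoxd8 and Oasl2 in Control_R, and Hoxc9 in either clone. The sizes of these genes therefore rest partly on the background level. It was more positive by 1 to 2 for Axin2 (1.92), Dusp4 (1.77), Gsc (1.71), Notum (1.58), Vim (1.53), Gbp3 (1.42), Snai1 (1.36), Bmp4 (1.35), Ifi27 (1.35), Col1a1 (1.17) and Gbp1 (1.1). Smaller positive values were those of Col5a1 (0.86), Mest (0.8), S100a10 (0.77), Dusp6 (0.72) and Krt8 (0.68). The difference was more negative without Dox by at least 1 for Enpp2 (−1.62), Smc1b (−1.62), Liph (−1.58), Calml4 (−1.55), Rhox9 (−1.51), Tnfrsf13c (−1.47), Aire (−1.26), Otx2 (−1.22), Ddit3 (−1.18), Zap70 (−1.14), Soat2 (−1.06), Dpp4 (−1.04), Ifi30 (−1.03) and Aqp3 (−1.01). Smaller negative values were those of Fgf4 (−0.97), Fgfr2 (−0.97), Cd97 (−0.95), Igsf21 (−0.9), Tnfrsf10b (−0.87), Thy1 (−0.86), Cd6 (−0.83), Utf1 (−0.82), Ifitm1 (−0.74), Myl3 (−0.74), Mov10l1 (−0.63), Cldn4 (−0.61), Slc22a18 (−0.61) and Itgb7 (−0.59).

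In the remaining genes no array of at least 1 of the 4 groups detected the probe, so their fitted values rest on the background level and are neither exact sizes nor bounds. These were Usp18 (5.22), Defcr-rs7 (4.79), Klhl6 (4.51), Rspo3 (3.82), Samd9l (3.22), Defcr-rs10 (3.07), Hoxc6 (2.77), Mixl1 (2.76), Mesp1 (2.63), Fgf5 (2.48), Lhx1 (2.45), Pdgfra (2.07), Wnt3 (1.93), Isl1 (1.57), Eomes (1.51), Nog (1.51), Dcn (1.42), Chek1 (0.8), Defb42 (−0.69), Myo1f (−0.78), Taf7l (−0.82), Rhox6 (−0.99), Car12 (−1.35) and Rab3il1 (−1.36). No cause was tested for any of these values.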

How the results depend on the processing

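The clones and the array sets cannot be told apart, the origin of the replicate arrays is not given, and low signals set how small a difference can be read. A larger offset, which shrinks differences at low signal, lowered the counts of called probes. With an offset of 50 they were 1593 with Dox, 860 for the interaction and 356 against the clones of the same array set. With 200 they were 1334 without Dox, 608 with Dox, 308 for the interaction (208 positive and 100 negative) and 101 in the same set. At this offset of 200 the Chek1 difference between Chek1_R and Control_R without Dox was −0.36 log2 and no longer reached 1.5-fold. A 2-fold limit left 1500, 631, 341 and 76 probes in the same order, and no fold limit gave 9179, 7513, 2766 and 4995. The same-set count was 1005 without background correction and 1084 with arrays scaled to their median. That scaling moved the median of all probes to 0.08 log2 and the split without Dox to 2612 higher and 1824 lower, and turned the sign of the small list medians of the Bcl2 family (0.13), cholesterol synthesis (0.05), DNA replication (0.11, and 0.02 as a mean of probes), LIF and STAT3 targets (0.04), mitosis (0.03) and all genes (0.08). Without background correction the list medians of blood and immune markers (−1.24), endoderm (−0.54) and imprinted genes (0.54) moved by over 1.5 times, as did those of the checkpoint (−0.08), p53 (−0.06) and naive pluripotency (−0.14) lists with arrays scaled to their median. Leaving out 1 array gave 4201 to 4533 probes without Dox, 2588 to 2818 with Dox, 1268 to 1350 for the interaction and 647 to 764 in the same set. Of 167 probes named by rule, 111 kept their call under the 7 alternatives run for them (background correction, scaling, both offsets, arrays normalized or fitted, replicate block) and with each of the 6 arrays left out, 56 lost it under at least 1, 55 of them with an offset of 200, and 0 reversed. The fold limit and the filter were not run for single probes. The replicate numbers did not pair the arrays (correlation of deviations −0.21 to −0.03 between the clones), and with the replicate block the counts were 4357, 2660, 1341 and 667. With the methods' t-test, 8936 probes had an unadjusted p below 0.05 without Dox and 7676 after Benjamini-Hochberg adjustment, and 4075 of these reached 1.5-fold.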
